A study of Mus musculus with 2 samples.

Results

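The genes described here are 40 cell cycle genes, selected by name from the 29217 gene symbols listed for 2 single-cell RNA libraries of mouse brain. They comprise 20 G2/M members, which act from late DNA replication through mitosis, and 14 S members, which supply nucleotides and copy DNA. A further 4 are G1 regulator members (Ccnd1, Ccne1, Cdkn1a and Cdk4) and 2 are chromatin and microtubule members (Stmn1 and Hmgb2). All 40 were listed in both libraries and all 40 were placed on the GRCm38 annotation, spread over 15 chromosomes. The question asked of them was which cells other than the carcinoma cells were cycling, and whether S or G2/M genes led in each cell class.

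The study profiled brain tissue of Balb/c mice in a model of brain metastasis by 4T1, a mouse mammary carcinoma line, with the Singleron GEXSCOPE microfluidic kit. Each group is 1 library, and the labels give no number of animals. The titles call 1 library control and the other positive. The treatment entries run the other way, placing the metastasis in the library titled control, although carcinoma-like cells were found in the library titled positive alone. Both libraries also carry TNBC as the molecular typing entry. Libraries are therefore named by title, and no direction with or without metastasis is drawn. With 1 library per group there is no replicate check and no p-value. All intervals are 95% intervals and cover counting error only.

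Proliferating cells switch on waves of genes in a fixed order. Cyclin D with Cdk4 and then cyclin E carry a cell out of G1, the MCM helicase and its loaders prepare and unwind the DNA, and cyclin B with Cdk1 starts mitosis. Securin, Cdc20 and Ube2c then serve the degradation steps by which chromosomes separate. Mature oligodendrocytes and neurons have left the cycle, microglia renew slowly in the adult brain, and neutrophil precursors and activated T cells divide in bone marrow, lymphoid organs and inflamed tissue.

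The library titled control held 10417 cell barcodes and 55657687 unique molecular identifiers (UMIs, each standing for 1 captured RNA molecule), and the library titled positive held 10842 barcodes and 98141261 UMIs. Median depth was 4230 and 7383.5 UMIs per barcode, and 149 barcodes occurred in both. After removal of predicted doublets (5.77% and 2.77% of barcodes) and of 11 and 5 barcodes with few genes or much mitochondrial RNA, 9806 and 10537 cells remained. Of these, 9765 and 2615 held at most 3 UMIs of Epcam, Krt8 and Krt18 together, 3 epithelial genes, and counted as non-carcinoma cells. Cells were clustered without the cell cycle genes and clusters were named from markers, written as "X-like". Every cell was then thinned to 2000 UMIs, and a cell with at least 3 genes of a list detected was counted as a cell with G2/M genes or with S genes.

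Before the values, the promoters show what the members share beyond their names. RefSeq promoters (GRCm38.p6) were matched for 33 of the 40 members, and the 250 bases before each start were searched on both strands. The pentamer CCAAT, the letters bound by NF-Y, occurred in 15 of 17 G2/M promoters (88.2%) and 9 of 12 S promoters (75.0%), against 34.5% of all 27025 promoters. Lists of 30 other G2/M and 30 other S genes had 25 and 22 promoters. Of these, 17 (68.0%) and 13 (59.1%) held CCAAT. The cell cycle homology letters TTTGAA or TTTAAA occurred in 11 of 17 G2/M promoters (64.7%) and 3 of 12 S promoters (25.0%), against 25.5% of all. Of the 25 other G2/M promoters, 7 held them (28.0%). TTTGAA alone occurred in 6 of the 17 G2/M promoters (35.3%), against 16.3% of all. E2F octamers (TTTCGCGC, TTTGGCGC, TTTCCCGC or TTTGCCGC) occurred in 4 of 12 S promoters (33.3%) and 1 of 17 G2/M promoters (5.88%), against 1.91% of all. In the other lists they occurred in 3 of 22 S promoters (13.6%) and 1 of 25 G2/M promoters (4%). Of the 3 G1 regulator members with a promoter, none held CCAAT or an E2F octamer. These are matches of letters, not measured sites, and no library here measured binding.

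Promoters of 6 members are printed to show these arrangements, 160 bases each, ending at the base before the RefSeq start and read along the gene's strand. Capitals mark the CCAAT pentamer, the TTTGAA hexamer and the E2F octamers on either strand, so CCAAT can read ATTGG and TTTGAA can read TTCAAA. The G2/M genes shown are Mki67 (a coat of mitotic chromosomes) at chr7:135716380-135716539 (minus strand), Top2a (the topoisomerase that untangles sister DNA) at chr11:99024190-99024349 (minus strand) and Cdc20 (the activator of the anaphase-promoting complex) at chr4:118437344-118437503 (minus strand). Their CCAAT letters recur, 6 times in the 250 bases of Top2a, with TTTGAA nearby.
Mki67: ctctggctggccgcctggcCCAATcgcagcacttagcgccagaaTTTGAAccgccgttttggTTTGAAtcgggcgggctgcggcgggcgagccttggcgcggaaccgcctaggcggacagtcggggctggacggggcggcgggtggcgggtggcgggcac
Top2a: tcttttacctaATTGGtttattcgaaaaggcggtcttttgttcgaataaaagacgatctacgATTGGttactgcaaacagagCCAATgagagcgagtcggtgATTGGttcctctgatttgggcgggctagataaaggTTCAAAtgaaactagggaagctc
Cdc20: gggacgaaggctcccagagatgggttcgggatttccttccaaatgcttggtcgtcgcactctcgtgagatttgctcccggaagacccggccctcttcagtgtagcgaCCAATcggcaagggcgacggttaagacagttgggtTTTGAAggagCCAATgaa

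The S genes shown are Mcm5 at chr8:75109349-75109508 (plus strand) and Mcm6 at chr1:128359706-128359865 (minus strand), both subunits of the replicative helicase. Each held E2F octamers as well as CCAAT, and overlapping octamers on the 2 strands form 1 longer capital run. Cdkn1a, the p21 inhibitor of cyclin-dependent kinases, at chr17:29090819-29090978 (plus strand), is printed for contrast and held none of the capitalised letters.
Mcm5: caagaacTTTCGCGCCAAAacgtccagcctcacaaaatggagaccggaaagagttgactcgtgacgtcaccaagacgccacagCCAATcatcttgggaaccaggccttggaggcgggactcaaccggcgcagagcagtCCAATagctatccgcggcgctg
Mcm6: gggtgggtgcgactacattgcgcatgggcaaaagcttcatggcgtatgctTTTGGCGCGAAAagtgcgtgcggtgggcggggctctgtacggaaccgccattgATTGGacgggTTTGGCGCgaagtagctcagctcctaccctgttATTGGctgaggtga
Cdkn1a: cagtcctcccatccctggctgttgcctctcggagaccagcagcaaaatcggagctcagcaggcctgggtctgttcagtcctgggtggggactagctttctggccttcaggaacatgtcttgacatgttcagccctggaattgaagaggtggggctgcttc

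T or NK cell-like and, in the library titled positive, neutrophil-like cells had the largest shares of cells with G2/M genes among the named non-carcinoma classes of 50 or more cells. In the library titled positive, 50 of 124 such cells had G2/M genes (40.3%, exact binomial interval 31.6% to 49.5%) and 60 had S genes (48.4%, 39.3% to 57.5%). In the library titled control, 12 of 88 had G2/M genes (13.6%, 7.25% to 22.6%) and 14 had S genes (15.9%, 8.98% to 25.2%). Neither pair of intervals overlapped. With cells holding both lists and at least 2 UMIs of carcinoma markers left out, the library titled positive had 28.8% (20.4% to 38.6%) with G2/M genes, an interval that overlapped that of the library titled control, and 38.5% (29.1% to 48.5%) with S genes. With 5 genes required, the S shares of 21.8% (14.9% to 30.1%) and 10.2% (4.78% to 18.5%) also overlapped. The carcinoma-like cells stood at 44.6% (43.3% to 45.9%) for G2/M genes and 38.8% (37.6% to 40.1%) for S genes over 5847 cells. Both intervals overlapped those of the T or NK cell-like class of that library. Without thinning, the S share was lower in the T or NK cell-like cells, at 69.4% against 81.1%. Their median depth was also lower, at 4262.5 against 10230 UMIs, and the part of depth in this difference was not tested.

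Neutrophil-like cells of the library titled positive had G2/M genes in 39 of 102 cells (38.2%, 28.8% to 48.4%) and S genes in 22 (21.6%, 14.04% to 30.8%). Their G2/M share cannot be ordered against that of the T or NK cell-like cells: the intervals overlapped, and the order turned under another random draw (46.1% against 41.9%), with 5 genes required (30.4% against 29.8%) and with cells holding both lists and carcinoma UMIs left out (31.5% against 28.8%). The library titled control held 10 such cells, too few to describe. Microglia or macrophage-like cells, a class of the library titled positive whose clusters scored close for both types, had G2/M genes in 59 of 377 cells (15.6%, 12.1% to 19.7%) and S genes in 33 (8.75%, 6.10% to 12.1%). Of these 59 cells, 35 lay in 1 sub-cluster of 38 cells. Its marker score was highest for microglia (1.97) and next highest for neutrophil (1.68). Without that sub-cluster the share with G2/M genes was 7.08%, and other clusterings, made without doublet removal or at resolution 2, gave 6.25% and 6.84%. Monocyte or macrophage-like cells had G2/M genes in 99 of 1268 cells (7.81%, 6.39% to 9.42%) in the library titled positive and in 6 of 207 cells (2.90%, 1.07% to 6.20%) in the library titled control. With G2/M genes the interval of the second ended at 6.20%, just below the 6.39% at which the first began. The intervals overlapped with each cell named by its own markers (7.01% and 3.64%), at resolution 2 (8.36% and 3.62%), with 5 genes required (3.39% and 2.42%), at a gate of 0 UMIs (4.79% and 2.93%) and with cells holding both lists and carcinoma UMIs left out (6.48% and 2.90%). They stayed apart without doublet removal (8.96% and 2.51%), under another random draw (7.1% and 2.42%), without thinning (26.3% and 4.35%) and with no gate (11.3% and 2.90%). The S shares of the monocyte or macrophage-like cells were 5.13% (3.98% to 6.49%) and 2.90% (1.07% to 6.20%), with overlapping intervals.

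Oligodendrocytes, which have left the cycle, served as the reference class. Oligodendrocyte-like cells had G2/M genes in 0 of 3508 cells of the library titled control, which allows a share of up to 0.0855% (3 cells of the total, as in the other limits for a count of 0; the exact upper end was 0.105%), and in 15 of 548 cells of the library titled positive (2.74%, 1.54% to 4.47%). Shares with S genes were 0.428% and 1.28%. Median depths before thinning were 6168 and 4508.5 UMIs for the oligodendrocyte-like cells, against 3121 and 4262.5 for the T or NK cell-like cells, 4898.5 for the neutrophil-like cells, 4463 for the microglia or macrophage-like cells and 4629 for the monocyte or macrophage-like cells of the library titled positive. Astrocyte-like cells (0 of 1913, up to 0.157%), endothelial cell-like cells (0 of 438, up to 0.685%) and pericyte-like cells (0 of 180, up to 1.67%) of the library titled control had no cell with G2/M genes. Endothelial cell-like cells of the library titled positive had 0 of 51, which allows up to 5.88%. The T or NK cell-like, neutrophil-like, microglia or macrophage-like and monocyte or macrophage-like G2/M shares of the library titled positive lay over the oligodendrocyte-like share of the same library with intervals that did not overlap. For the macrophage-containing classes this did not hold under every alternative. At a gate of 0 UMIs monocyte or macrophage-like cells stood at 4.79% (1.95% to 9.63%) and oligodendrocyte-like cells at 4.76% (1.31% to 11.7%), and the interval of microglia or macrophage-like cells (15.8%, 6.02% to 31.3%) overlapped the latter too. Microglia or macrophage-like cells stood at 6.25% (2.74% to 11.9%) against 2.81% (1.58% to 4.6%) without doublet removal and at 6.84% (2.998% to 13.03%) against 2.67% (1.47% to 4.43%) at resolution 2. Cells of that library that exceeded the gate were left out, and 46.4% of 166 T or NK cell-like, 44.0% of 116 neutrophil-like and 8.28% of 290 oligodendrocyte-like cells among them had G2/M genes. So had 22.5% of 271 microglia or macrophage-like, 15.8% of 973 monocyte or macrophage-like and 11.4% of 44 endothelial cell-like cells. These cells were deeper, with medians of 8558.5, 8307.5, 5428, 5435, 6658 and 7870.5 UMIs in that order (the last against 4980 within the gate). The parts of depth and carcinoma RNA in these shares were not tested.

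**Figure D1:**
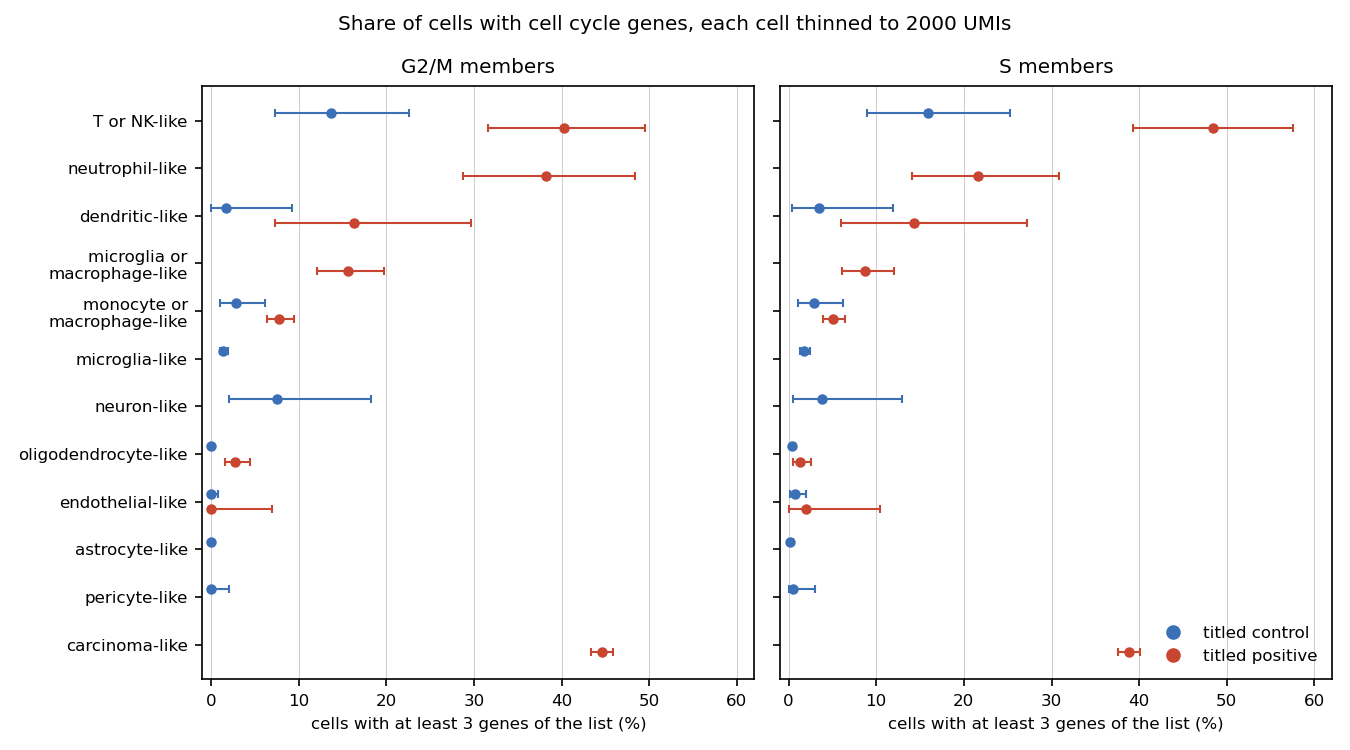
Share of cells with at least 3 G2/M members (left) or S members (right) detected, in % of the cells of each class, each cell thinned to 2000 UMIs. Points are shares and bars are exact 95% binomial intervals, blue for the library titled control and red for the library titled positive. T or NK-like and neutrophil-like cells of the library titled positive lie near the carcinoma-like cells for G2/M members, at 40.3%, 38.2% and 44.6%.

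Cells named microglia-like came from the library titled control alone, which follows from the naming and does not show that the other library lacked microglia. Its microglia or macrophage-like cells held 5612 CPM (with either list) and 5673 CPM (others) of summed microglia markers. Its monocyte or macrophage-like cells held 934 and 902 CPM. The microglia-like cells held a small cycling fraction, with G2/M genes in 33 of 2341 cells (1.41%, 0.972% to 1.97%) and S genes in 42 (1.79%, 1.30% to 2.42%). Without doublet removal the G2/M share was 2.15%, and at resolution 2 it was 2.24%. These lay above the oligodendrocyte-like cells of that library (0 of 3508 with G2/M genes, 0.428% with S genes). The microglia-like cells of 1 small sub-cluster had G2/M genes in 8 of 86 cells (9.30%), against 25 of 2255 (1.11%) in the main cluster. Cells left unnamed in the library titled control had G2/M genes in 23 of 586 (3.92%). They held 2071 G2/M UMIs, against 2056 in the microglia-like cells. An unnamed sub-cluster of 21 cells scored highest for microglia (3.91) and next highest for B cell (1.55). Other unnamed sub-clusters scored highest for other types, such as endothelial cells. How many of the 23 cells were microglia was not tested. In the neuron-like class of that library the 4 of 53 cells with G2/M genes (7.55%) held 14.2 times the neuroblast marker level of the other 49 and 0.0523 times the neuron marker level. Dlx1 (1688 CPM, that is, counts scaled to a common total of UMIs) and Sox11 (844 CPM), transcription factors of newborn neurons, were among their genes.

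Dendritic cell-like cells numbered 58 and 49, the second under the 50 set for a described class. G2/M genes were found in 1 of 58 cells of the library titled control (1.72%) and 8 of 49 of the library titled positive (16.3%, 7.32% to 29.7%), and S genes in 2 and 7. The intervals of the G2/M shares, 0.0436% to 9.24% and 7.32% to 29.7%, overlapped. Smaller classes of the library titled positive also held cells with G2/M genes. They were 5 of 17 B or plasma cell-like cells (29.4%, 10.3% to 56.0%) and 4 of 34 fibroblast-like cells (11.8%, 3.30% to 27.5%). Ependymal cell-like cells had 1 of 19 and astrocyte-like cells 0 of 12. Over the gate, 24 of 67 B or plasma cell-like (35.8%) and 14 of 38 fibroblast-like cells (36.8%) had G2/M genes. In the library titled control these 2 classes had 2 of 27 and 0 of 40.

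Many cells lay close to the threshold. Exactly 3 G2/M members were detected in 7 of the 50 T or NK cell-like cells counted in the library titled positive, in 6 of the 39 neutrophil-like cells and in 44 of the 99 monocyte or macrophage-like cells. A further 21, 9 and 153 cells of those classes stood at 2 G2/M members. Without thinning, the G2/M shares in that library were 63.7% for T or NK cell-like, 59.8% for neutrophil-like, 33.7% for microglia or macrophage-like, 26.3% for monocyte or macrophage-like and 14.1% for oligodendrocyte-like cells. In the library titled control the unthinned shares were 14.8% for T or NK cell-like, 1.79% for microglia-like and 4.35% for monocyte or macrophage-like cells.

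S and G2/M genes were not balanced alike in all classes. Over summed UMIs, carcinoma-like cells held 0.481 S UMIs per G2/M UMI. Neutrophil-like cells held 0.332 (conditional exact interval 0.299 to 0.368), with G2/M genes leading further. Microglia or macrophage-like cells held 0.415 (0.385 to 0.448), T or NK cell-like cells 0.649 (0.604 to 0.698) and monocyte or macrophage-like cells 0.667 (0.636 to 0.7002) in the same library. T or NK cell-like cells of the library titled control held 0.454 (0.400 to 0.514), below those of the library titled positive, with intervals that did not overlap. Without the sub-cluster of 38 cells, the microglia or macrophage-like ratio was 0.819.

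Counted by single cells, the order of the classes was not the same. Of the 45 neutrophil-like cells with either list, 23 had G2/M genes alone, 16 had both and 6 had S genes alone. Of the 79 T or NK cell-like cells of the library titled positive, 29 had S genes alone, 31 both and 19 G2/M genes alone. Monocyte or macrophage-like cells split into 73 with G2/M genes alone, 26 with both and 39 with S genes alone, so that 52.9% had G2/M genes alone, against 39.5% in carcinoma-like cells, although their UMI ratio was above that of carcinoma-like cells. Microglia-like cells of the library titled control split into 21, 12 and 30. Over summed UMIs they held 1.12 S UMIs per G2/M UMI (1.05 to 1.19), and 1.2 with each cell named by its own markers. The ratio was 0.657 without doublet removal and 0.675 at resolution 2. Which list led in that class therefore turned with the clustering. Oligodendrocyte-like cells of the library titled control held 5139 S UMIs and 496 G2/M UMIs, and 3149 of the S UMIs were Pcna.

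The G2/M members were examined gene by gene as CPM of all UMIs summed over a class and library, with exact Poisson intervals. Mki67 stood at 260.4 CPM in T or NK cell-like cells of the library titled control and 361 CPM in those of the library titled positive, at 393 CPM (343 to 447) in neutrophil-like cells and at 133 CPM in carcinoma-like cells. Top2a stood at 227 and 390 CPM in the T or NK cell-like cells of the same libraries, at 231 CPM in neutrophil-like cells and at 318 CPM in carcinoma-like cells. In oligodendrocyte-like cells the 2 genes stood at 0.464 and 0.548 CPM in the library titled control and at 13.99 and 32.8 CPM in the library titled positive. Mki67 was thus higher in both lymphoid and neutrophil-like cells than in carcinoma-like cells, while Top2a was not higher in neutrophil-like cells.

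Cdk1, the mitotic kinase, ran the other way, with 373 CPM in carcinoma-like cells, 170 CPM in T or NK cell-like cells and 140 CPM in neutrophil-like cells of the library titled positive, and 112 CPM in T or NK cell-like cells of the library titled control. Its partner Ccnb1 stood at 125, 89.3, 103 and 42.0 CPM in the same order. Birc5, survivin, of the chromosomal passenger complex, stood at 279, 240, 166 and 171 CPM. The proteolysis genes Ube2c, a ubiquitin-conjugating enzyme, and Cdc20 stood at 286, 334, 284 and 291 CPM and at 96.5, 86.0, 61.3 and 61.6 CPM. Pttg1, securin, stood at 265, 270, 161 and 280 CPM. Over the 20 G2/M members, T or NK cell-like cells of the library titled positive ranged from 45.6% (Cdk1) to 270% (Mki67) of the carcinoma-like level, with a median of 92.9%, and neutrophil-like cells from 37.5% (Cdk1) to 294% (Mki67), with a median of 75.9%.

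In the microglia, macrophage and monocyte classes the summed G2/M members were lower. Mki67 stood at 108 CPM and Top2a at 130 CPM in microglia or macrophage-like cells, and Mki67 at 24.1 CPM and Top2a at 16.3 CPM in the microglia-like cells of the library titled control. In monocyte or macrophage-like cells Mki67 stood at 45.2 CPM in the library titled control and 63.0 CPM in the library titled positive, and Cdk1 at 28.8 and 58.0 CPM. The summed G2/M members stood at 1252 CPM (1202 to 1303) in microglia or macrophage-like cells, at 238 CPM (228 to 248) in microglia-like cells and at 623 CPM (604 to 642) and 493 CPM (451 to 537) in the monocyte or macrophage-like class, positive before control. All 20 members were detected in each of these classes.

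**Figure D2:**
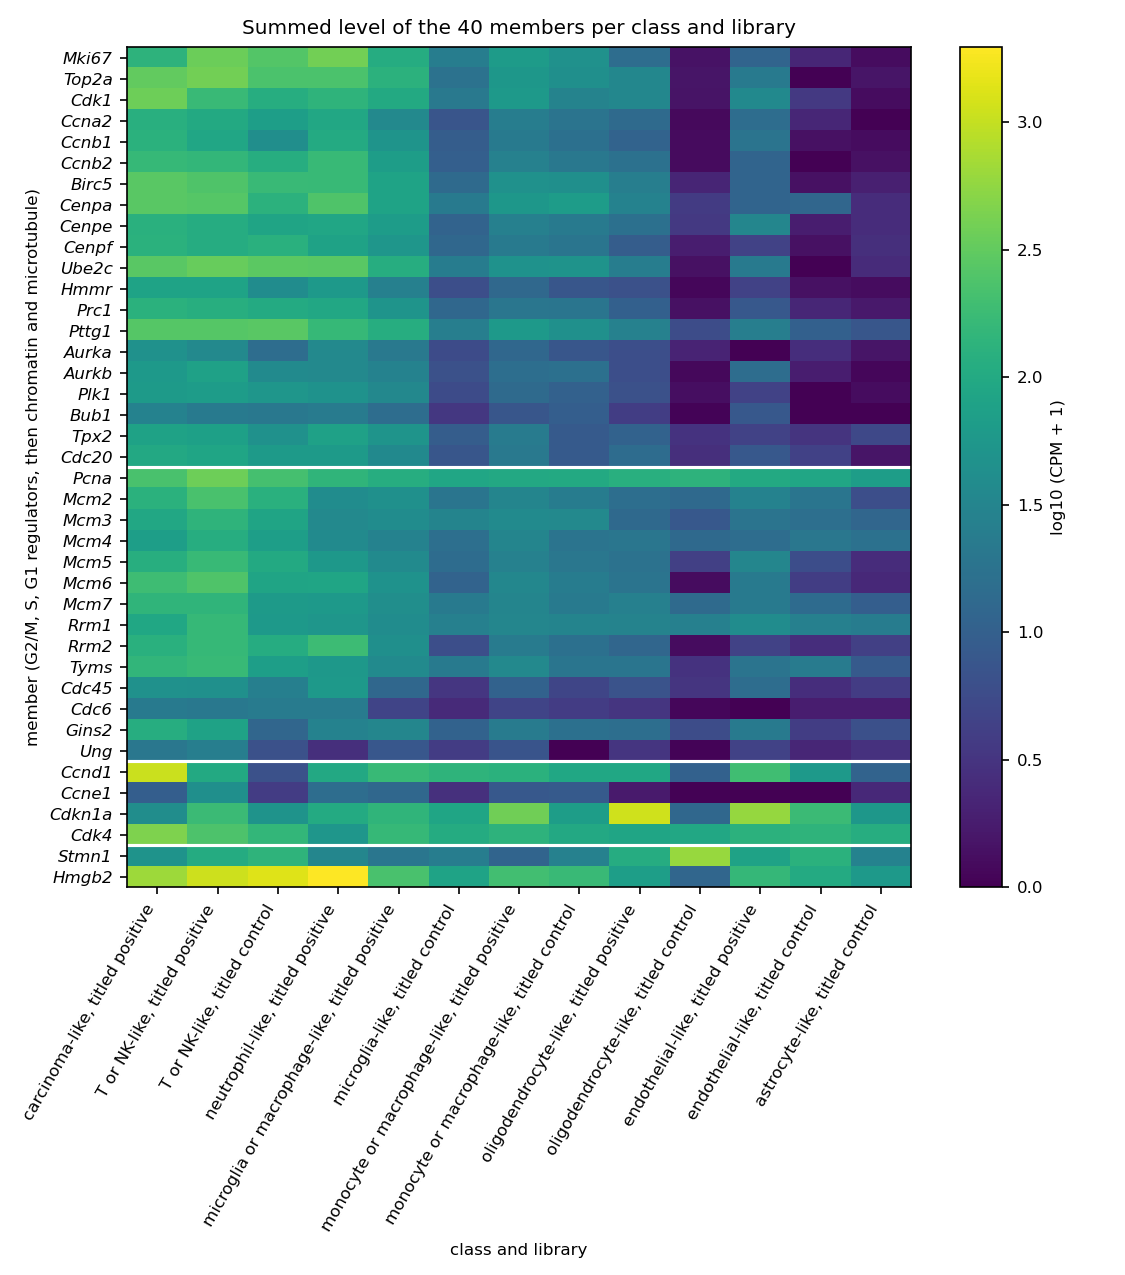
Level of each of the 40 members as log10 of CPM plus 1, by class and library, with white lines between G2/M, S, G1 regulator, and chromatin and microtubule members. Colours compare columns within a row. Mki67 reached 393 CPM in neutrophil-like cells and 0.464 CPM in oligodendrocyte-like cells of the library titled control, while Cdkn1a was brightest in oligodendrocyte-like cells of the library titled positive.

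Among the S members, Pcna, the sliding clamp of DNA polymerase, was detected widely. It stood at 207 CPM in T or NK cell-like cells of the library titled control and 371 CPM in those of the library titled positive, at 224 CPM in carcinoma-like cells, and at 133 and 119 CPM in the oligodendrocyte-like cells of the libraries titled control and positive. Pcna differed less between these classes than Mcm6, which stood at 84.0 and 241 CPM in T or NK cell-like cells of the libraries titled control and positive and at 0.295 and 17.7 CPM in oligodendrocyte-like cells. Rrm2, the regulated subunit of ribonucleotide reductase, stood at 109 and 160 CPM in T or NK cell-like cells, at 179 CPM (146 to 217) in neutrophil-like cells, above the 124 CPM of carcinoma-like cells, and at 0.295 and 11.4 CPM in oligodendrocyte-like cells.

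The helicase subunits Mcm3 and Mcm5 stood at 84.0 and 101 CPM in T or NK cell-like cells of the library titled control, at 139 and 164 CPM in those of the library titled positive and at 35.0 and 56.1 CPM in neutrophil-like cells. Tyms, thymidylate synthase, stood at 70.0, 164 and 56.1 CPM and Gins2, of the GINS helicase complex, at 11.2, 77.7 and 28.0 CPM in those 3. Carcinoma-like cells held 94.7 CPM of Mcm3, 115 CPM of Mcm5, 145 CPM of Tyms and 113 CPM of Gins2. Over the 14 S members, T or NK cell-like cells of the library titled positive had a median of 130% of the carcinoma-like level (68.6% for Gins2 to 177% for Mcm2). Neutrophil-like cells had a median of 47.5% (9.05% for Ung to 145% for Rrm2), and so matched the carcinoma-like level less closely in S members than in G2/M members.

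Carcinoma marker UMIs were found in all 7 classes of the library titled positive set beside the carcinoma-like cells. The 9 carcinoma markers that the gate did not use (Krt7, Krt19, Cldn3, Cldn4, Cldn7, Wfdc2, Msln, Cdh1 and Sfn) were all detected in its oligodendrocyte-like cells, at 6.48% (Sfn) to 10.1% (Cldn3) of the carcinoma-like level, and their median was 7.57%. Their medians were 8.68% in neutrophil-like cells, where Cdh1 was at 0, 8.70% in monocyte or macrophage-like cells, 9.78% in microglia or macrophage-like cells and 10.1% in T or NK cell-like cells. In the library titled control the summed carcinoma markers outside the gate stood at 0.253 CPM in oligodendrocyte-like cells, with 5 of 9 at 0, and at 11.2 CPM in T or NK cell-like cells, with 7 of 9 at 0, against 413 and 508 CPM in the same classes of the library titled positive.

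The G2/M members of oligodendrocyte-like cells in the library titled positive overlapped that range, running from 6.72% (Cenpf) to 14.1% (Cdc20) of the carcinoma-like level, with a median of 10%. Endothelial cell-like cells had a median of 6.99% for the G2/M members and 6.91% for the carcinoma markers outside the gate. Monocyte or macrophage-like cells had a median of 19.8% for the G2/M members, with the lowest, Prc1, at 14.8%, against 7.64% to 19.1% for the carcinoma markers. Microglia or macrophage-like cells had 41.2% (26.9% for Cdk1 to 81.3% for Mki67), above all 9 markers (6.21% to 14.9%). The S members had medians of 12.9% in oligodendrocyte-like and 18.7% in endothelial cell-like cells, above the markers. The part of carcinoma RNA in any of these values was not tested.

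**Figure D3:**
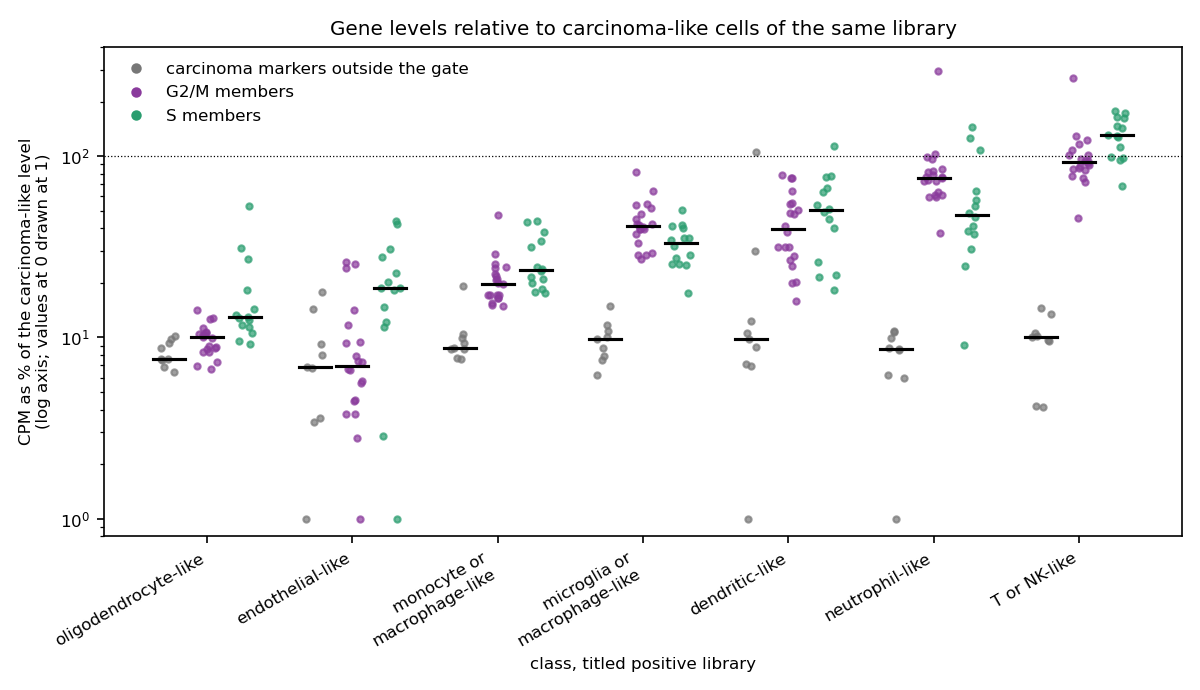
Level of each gene in a class of the library titled positive, as % of its CPM in carcinoma-like cells, on a log axis; points are genes, black bars are medians, and values at 0 are drawn at 1. Carcinoma markers outside the gate have medians of 6.91% to 10.1% in all 7 classes, and the G2/M members run from there in oligodendrocyte-like and endothelial-like cells up to a median of 92.9% in T or NK-like cells.

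Cells with either list were then compared with the other cells of their class in genes that did not enter the threshold. In the library titled positive, a list of 30 other G2/M genes was 6.59 times as high in the 45 neutrophil-like cells as in the other 57, 4.22 times in the 79 T or NK cell-like cells, 4.96 times in the 138 monocyte or macrophage-like cells and 7.26 times in the 82 microglia or macrophage-like cells. In the 63 microglia-like cells of the library titled control it was 16.7 times as high. In the 20 oligodendrocyte-like cells of the library titled positive it was 1.38 times as high (1.14 to 1.65). The summed carcinoma markers outside the gate were 0.740 times as high in the neutrophil-like cells, 0.824 times in the T or NK cell-like cells, 0.974 times in the microglia or macrophage-like cells and 1.14 times (1.02 to 1.27) in the monocyte or macrophage-like cells. In the oligodendrocyte-like cells they were 1.46 times as high (1.10 to 1.90).

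Among neutrophil-like cells, those with cell cycle genes differed from the others in granule and receptor genes. Camp, a granule peptide made by precursors in the marrow, stood at 21009 CPM against 9371 CPM in the other cells (2.24 times, 2.14 to 2.35). Ngp was 1.68 times and Ltf, lactoferrin, 1.43 times as high. Retnlg, a gene of mature neutrophils, stood at 1121 against 12627 CPM (0.0888 times, 0.0791 to 0.0993). Mmp9 stood at 0.204 times, and the receptors Cxcr2 and Csf3r both at 0.322 times, the level of the other cells. The summed neutrophil markers were nearly level (0.977 times), as were S100a8 (0.871) and S100a9 (1.05). The cells with cell cycle genes were also deeper, with medians of 5900 against 4127 UMIs, and held fewer oligodendrocyte marker UMIs (0.409 times). The part of depth in these ratios was not tested.

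**Figure D4:**
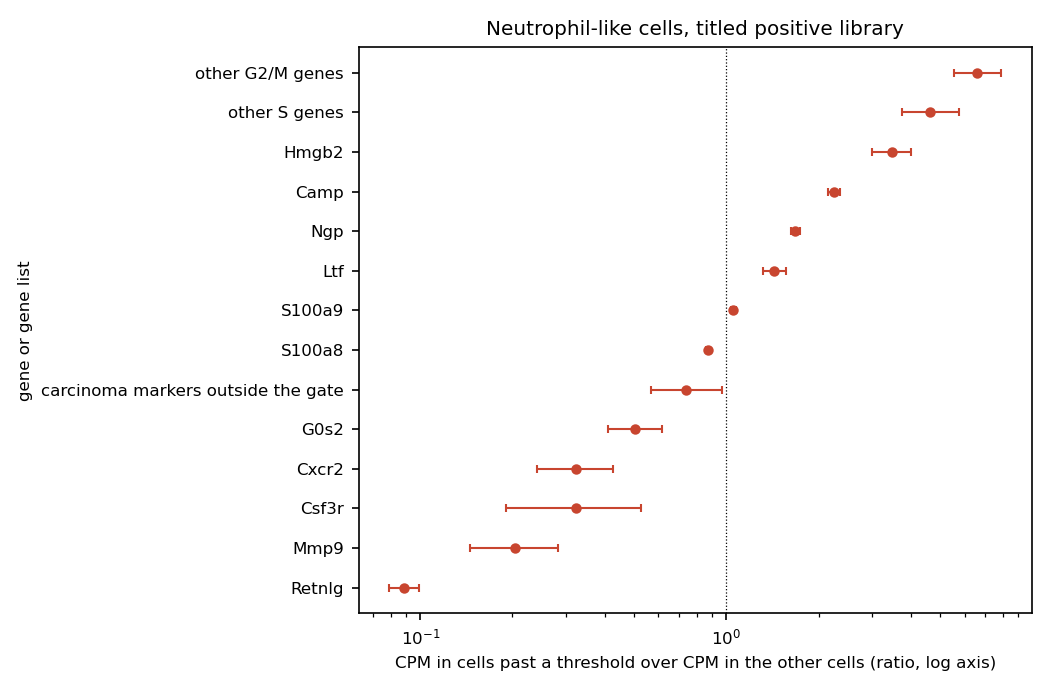
CPM in the 45 neutrophil-like cells with G2/M or S genes over CPM in the other 57, library titled positive, on a log axis; points are ratios and bars are conditional exact 95% intervals. Camp (2.24) and other G2/M genes (6.59) lie to the right of 1 and Retnlg (0.0888), Mmp9 (0.204) and Cxcr2 (0.322) to the left.

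In T or NK cell-like cells of the library titled positive, summed T cell markers were 1.25 times as high (1.15 to 1.36) in the 79 cells with either list, and NK cell markers 0.743 times (0.682 to 0.809). Cd3g, a T cell receptor chain, was 1.81 times as high, and Ncr1, an NK receptor, 0.425 times. In the library titled control the 18 cells with either list showed 1.25 times the T cell markers and 0.846 times the NK cell markers. There Ncr1 was again lower (0.555 times), but Cd3g was lower too (0.707 times, 0.523 to 0.946), the opposite of the other library. The cells with either list were also deeper, with medians of 4622 against 3617 UMIs in the library titled positive and 5858.5 against 2851.5 in the library titled control, and held fewer oligodendrocyte marker UMIs (0.161 and 0.145 times). Microglia markers were lower too (0.481 and 0.299 times). Monocyte or macrophage markers were 0.797 times as high (0.708 to 0.898) in the library titled positive. In the library titled control they were 1.65 times as high (1.46 to 1.87). Whether depth or other cells' RNA played a part in these ratios was not tested.

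In monocyte or macrophage-like cells of the library titled positive, Ly6c2 and Ccr2, genes of recruited monocytes, were 0.687 and 0.742 times as high in the cells with either list, and Pf4 0.491 times, while the summed monocyte or macrophage markers were 0.941 times as high. In microglia or macrophage-like cells the summed microglia markers were level (0.989 times), with P2ry12, a homeostatic purine receptor, at 0.687 times and Olfml3 at 1.54 times (1.18 to 2.01). Neutrophil markers were 1.40 times (1.25 to 1.55) and monocyte or macrophage markers 0.822 times (0.760 to 0.889) as high in those cells, and the part of other cells' RNA was not tested. Microglia-like cells of the library titled control differed more: summed microglia markers were 0.547 times, P2ry12 0.339 times and Gpr34 0.290 times as high in the 63 cells with either list, and Cdkn1a was 4.28 times as high (3.48 to 5.22). Of the 11 microglia markers 10 were lower, and Fcrls was higher (1.78 times, 1.58 to 2.005). Monocyte or macrophage markers were 1.30 times as high (1.18 to 1.43). Median depth was 4750 UMIs in the 63 cells and 3200 in the others, and its part in these ratios was not tested. The small sub-cluster of 86 cells, whose leading genes include Cxcl13, Lyz1, Cd72 and Fcrls, gave 8 of the cells with G2/M genes and 11 of those with S genes.

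Levels were next compared between libraries within 4 classes that had at least 50 cells in each, as log2 of the CPM in the library titled positive over that in the library titled control. T or NK cell-like cells came from 1 cluster in both libraries. Monocyte or macrophage-like cells came mainly from cluster 24 in the library titled positive (869 of 1268) and from sub-clusters of clusters 6 and 9 in the library titled control. Oligodendrocyte-like cells came from cluster 28 in the library titled positive and from clusters 2 and 3 in the library titled control, and endothelial cell-like cells from different sub-clusters of cluster 7. The T or NK cell-like class merges 2 cell types, and its NK cell markers differed between libraries. Ncr1 stood at 291 CPM in cells with either list and 524 CPM in the others in the library titled control. In the library titled positive these levels were 72.1 and 170 CPM. Prf1 went the other way, with 150 and 283 CPM against 298 and 435 CPM. In none of the 4 classes can cell make-up or state and library be told apart.

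In T or NK cell-like cells, 5 of 20 G2/M members were at least 2-fold higher in the library titled positive and 0 were 2-fold lower, with a median log2 ratio of 0.47. Across the 6019 genes measured there, 9.64% were at least 2-fold higher and 10.4% at least 2-fold lower, with a median of -0.01. The G2/M median was 1.25 when each cell counted equally and 0.77 without doublet removal. The highest of the G2/M members, Aurka, a spindle pole kinase, stood at 14 and 34.7 CPM in the libraries titled control and positive, with an interval that included no difference (log2 1.21, -0.14 to 3.07). The lowest was Cenpf, a kinetochore protein (123 and 108 CPM, log2 -0.20). Of the 13 measured S members 5 were 2-fold higher, with a median of 0.83, from Cdc6, a helicase loader (log2 -0.20), to Gins2 (log2 2.64, 1.34 to 4.73). Mcm6 was higher by log2 1.5 (0.95 to 2.14).

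The G1 regulator members differed most in that class. Ccnd1, cyclin D1, stood at 5.60 CPM (2 UMIs) in T or NK cell-like cells of the library titled control and at 99.2 CPM in those of the library titled positive. The latter is 9.12% of the carcinoma-like level of 1089 CPM, a share like that of the carcinoma markers (median 10.1%). Ccne1, cyclin E1, stood at 2.80 CPM (1 UMI) and 43.0 CPM (28.1 to 63.0, 26 UMIs), and at 8.63 CPM in carcinoma-like cells. Cdkn1a stood at 47.6 and 174 CPM (log2 1.83, 1.12 to 2.70), and Cdk4 at 151 and 235 CPM (log2 0.63, 0.17 to 1.12). Ccne1 and Cdkn1a were thus higher than in carcinoma-like cells, and Ccnd1 was not. Within that class Ccne1 was 11.3 times as high in the cells with either list (1.86 to 466), and Ccnd1 was level at 1.06 times (0.596 to 1.95).

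In monocyte or macrophage-like cells, 2 of 20 G2/M members and 2 of 14 S members were at least 2-fold higher, against 10.7% of all genes measured (16.6% were at least 2-fold lower, against 0 members of either list). The medians were 0.38 and 0.46, against -0.19 over all genes, and 1.16 and 1.10 when each cell counted equally. Tpx2, a spindle assembly factor, was the highest of the G2/M members (7.69 and 22.5 CPM, log2 1.47, 0.53 to 2.79) and Bub1, a checkpoint kinase, the lowest (8.65 and 6.71 CPM, log2 -0.43, -1.42 to 0.85). Among the S members Ung, a uracil glycosylase, was at 0 UMIs in the library titled control and 6.11 CPM in the library titled positive, at least 2.12-fold higher against a floor of 3 UMIs in the class. Pcna was the lowest (98.9 and 97.6 CPM, log2 -0.03). With the gate at 0 UMIs, the median log2 ratio of the G2/M members was -0.12, so no direction is drawn for that list.

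In oligodendrocyte-like cells all 17 of the G2/M members that passed the minimum of 20 UMIs were at least 2-fold higher in the library titled positive, where 13.5% of all genes measured were (17.8% were at least 2-fold lower). Their median was 4.37, against -0.23 over all genes. The other 3 did not reach the minimum. It was summed over both libraries, so a member could pass it through the library titled positive alone. The count of 17 is therefore not read as a result by itself. With no minimum the median over the 20 members was 4.61. The log2 ratios ran from 2.20 for Aurka (1.14 and 5.15 CPM) to 5.95 for Cdk1 (0.506 and 32.4 CPM). Of the S members, 7 of 12 measured were 2-fold higher, from Pcna (log2 -0.15) to Mcm6 (log2 5.82). Among the carcinoma markers outside the gate, 7 of 7 measured were also 2-fold higher under the same minimum. Of these 7, 5 were at 0 UMIs in the library titled control. The part of carcinoma RNA in these ratios was not tested.

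In endothelial cell-like cells 2 of 20 G2/M members passed the minimum, Pttg1 (9.27 and 24.7 CPM, log2 1.48, -0.06 to 2.69) and Cenpa, the centromeric histone (11.4 and 10.6 CPM, log2 0.09). All genes measured there gave 8.15% at least 2-fold higher and 16.7% at least 2-fold lower, with a median of -0.13. Of 8 measured S members 1 was 2-fold higher, Mcm5 (5.06 and 31.8 CPM, log2 2.67), and Mcm4 was the lowest (19.4 and 14.1 CPM, log2 -0.30).

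Cdkn1a differed most of the 40 members in the oligodendrocyte-like cells, from 11.8 CPM (10.4 to 13.2) in the library titled control to 1133 CPM (1093 to 1173) in the library titled positive, log2 6.59 (6.41 to 6.77). It was detected in 4.19% of those cells in the library titled control and 97.3% in the library titled positive (1.25% and 82.5% after thinning). Carcinoma-like cells held 40.7 CPM of Cdkn1a. The same gene stood at 174 and 597 CPM in endothelial cell-like cells (log2 1.78, 1.51 to 2.03) and at 68.2 and 380 CPM in monocyte or macrophage-like cells (log2 2.47, 2.14 to 2.84) of the libraries titled control and positive. It was thus higher in the library titled positive in all 4 classes compared, with intervals above 0.

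Ccnd1 stood at 9.70 and 91.7 CPM in oligodendrocyte-like cells, the latter 8.42% of the carcinoma-like level, at 59.0 and 194 CPM in endothelial cell-like cells and at 92.2 and 128 CPM in the monocyte or macrophage-like class, control before positive. In microglia-like cells of the library titled control it stood at 137 CPM, where carcinoma markers outside the gate summed to 1.27 CPM. Cdk4 stood at 94.0 and 84.7 CPM in oligodendrocyte-like cells (log2 -0.15, -0.35 to 0.05), at 137 and 131 CPM in endothelial cell-like cells and at 95.1 and 134 CPM in monocyte or macrophage-like cells (log2 0.49). Ccne1 stayed at or under 2 UMIs in the oligodendrocyte-like and endothelial cell-like classes of both libraries.

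**Figure D5:**
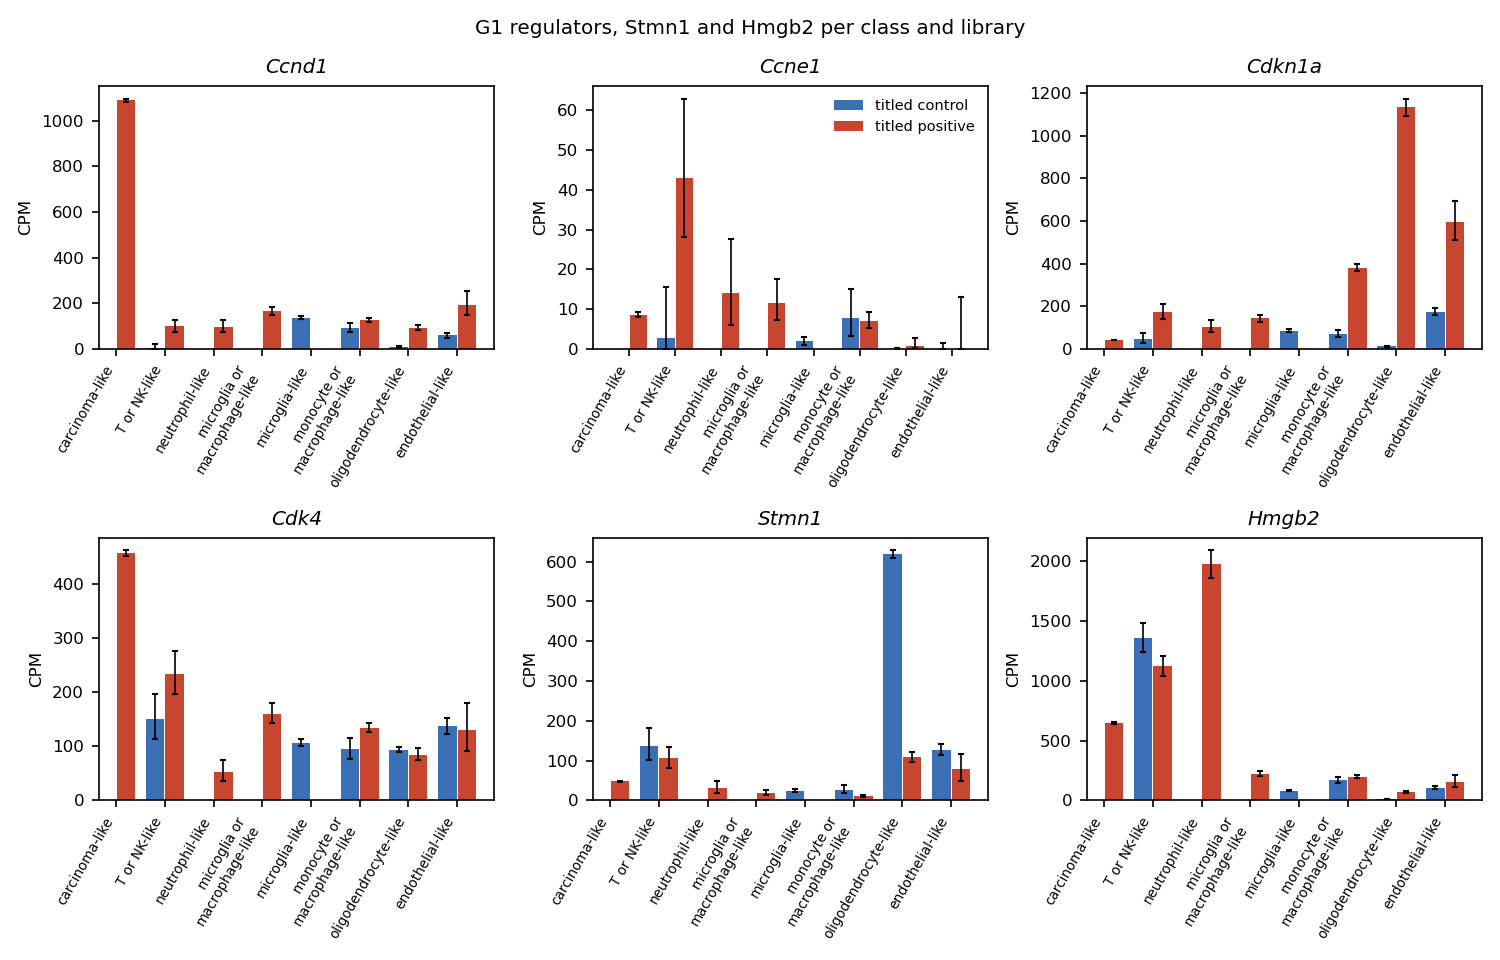
CPM of Ccnd1, Ccne1, Cdkn1a, Cdk4, Stmn1 and Hmgb2 by class, blue for the library titled control and red for the library titled positive; bars are summed levels and whiskers exact 95% Poisson intervals. Ccnd1 is highest in carcinoma-like cells at 1089 CPM, Cdkn1a in oligodendrocyte-like cells of the library titled positive at 1133 CPM, and Hmgb2 in neutrophil-like cells at 1975 CPM.

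The chromatin and microtubule members varied between cell classes as well as within them. Hmgb2, a chromatin protein of dividing cells, stood at 1975 CPM (1861 to 2093) in neutrophil-like cells, at 1355 and 1121 CPM in T or NK cell-like cells of the libraries titled control and positive (log2 -0.27, -0.44 to -0.10) and at 647 CPM in carcinoma-like cells. It was 3.47 times as high in neutrophil-like cells with either list and 4.85 times in such T or NK cell-like cells of the library titled positive. Stmn1, stathmin, which destabilises microtubules, stood at 619 CPM in oligodendrocyte-like cells of the library titled control, where no cell had G2/M genes, and at 109 CPM in those of the library titled positive (log2 -2.50, -2.67 to -2.33). In T or NK cell-like cells it stood at 137 and 106 CPM and was 9.22 times as high in the cells with either list of the library titled positive. In monocyte or macrophage-like cells it stood at 26.9 and 10.6 CPM (log2 -1.36, -2.0 to -0.66). In endothelial cell-like cells it stood at 127 and 77.7 CPM (log2 -0.68, -1.40 to -0.08). Stmn1 was thus lower in the library titled positive in these 3 classes, and in T or NK cell-like cells the interval included no difference (log2 -0.38, -0.93 to 0.19).

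Other genes of the pathway, from lists that hold none of the 40, were counted in the same way. In T or NK cell-like cells, 4 of 24 measured other G2/M genes were 2-fold higher and 1 lower (median log2 0.21), as were 8 and 0 of 26 other S genes (0.75) and 3 and 0 of 12 other G1 and inhibitor genes (-0.15). In monocyte or macrophage-like cells the counts were 5 and 0 of 29, 3 and 1 of 29, and 3 and 5 of 18. In oligodendrocyte-like cells they were 17 and 0 of 20, 9 and 0 of 21, and 7 and 0 of 17, and in endothelial cell-like cells 0 and 0 of 5, 1 and 0 of 14, and 2 and 4 of 17. Over all genes measured, 9.64% were 2-fold higher and 10.4% lower in T or NK cell-like cells. These shares were 10.7% and 16.6% in monocyte or macrophage-like, 13.5% and 17.8% in oligodendrocyte-like, and 8.15% and 16.7% in endothelial cell-like cells. Cdk6, a G1 kinase, was the highest of the other G1 and inhibitor genes in T or NK cell-like, oligodendrocyte-like and endothelial cell-like cells.

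Some member counts are less certain. Of the 40 members, 11 overlap another listed gene on the annotation, among them Ube2c, Cdc20, Gins2 and Cdk4 on the opposite strand, and the strand setting of the counting is not given in the sources used here. Pseudogenes named after Ccnb1, Ccnb2, Pcna and Tyms were listed as separate genes, so reads could have been split between them.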

How the data were processed

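The 2 brain libraries, 1 titled control and 1 titled positive, were analysed. The deposited values were raw UMI counts per gene and cell, made by the authors with Cell Ranger on GRCm38 per the submitters' processing notes; the sources used here give no version, annotation or strand setting.

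From these counts, barcodes with under 200 genes or over 20% mitochondrial UMIs were removed, doublets were removed with Scrublet, and cells were clustered jointly with scanpy 1.11.5 (2000 variable genes without cell cycle genes, 30 components, 15 neighbours, Leiden resolution 1, sub-clusters at 0.5). Clusters were named from fixed markers; T with NK cells and B with plasma cells were merged, and clusters scoring close for microglia and macrophages carry both names. Neither cells nor genes are replicates, so no test was made. Shares carry Clopper-Pearson, CPM exact Poisson and ratios conditional exact binomial 95% intervals. Log2 ratios added 0.5 counts and used genes with at least 20 UMIs over both libraries. The code was tested on simulated data. A set of members and the highest and lowest member of each list were set by rule; others named were chosen after their values were seen. Members and lists were chosen with earlier results of these data known. Genome positions came from GENCODE M21 and promoters from RefSeq. Alternatives tried were the doublet step, naming per cell, resolution 2, gates of 0 UMIs or none, 5 genes, no thinning, another draw, cells with carcinoma UMIs left out, 1 sub-cluster left out, per-cell means and no UMI minimum.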

Additional observations from a re-analysis of the deposited data

How the results depend on the processing

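No paired analysis was possible because each group is 1 library. Of 236 values under alternatives to 32 results, 156 lay within the counting interval of the reported value, 79 moved outside it and 1 reversed. Below, lists of shares with G2/M genes and then with S genes run in the order T or NK cell-like, neutrophil-like, microglia or macrophage-like, monocyte or macrophage-like and oligodendrocyte-like cells of the library titled positive unless a class is named, and the cause of a move was not tested where the setting itself does not give it. Requiring 5 genes gave G2/M shares of 29.8% (T or NK), 11.4% (microglia or macrophage), 3.39% (monocyte or macrophage) and 0.182% (oligodendrocyte), S shares of 21.8%, 7.84%, 1.33%, 0.946% and 0%, and in the library titled control S shares of 0.598% (microglia) and 0.483% (monocyte or macrophage). Unthinned counts gave 63.7%, 59.8%, 33.7%, 26.3% and 14.1%, then 69.4%, 34.3%, 25.2%, 21.4% and 12.8%, and 4.14% with S genes in microglia-like cells of the library titled control. Leaving out cells with both lists and at least 2 UMIs of carcinoma markers gave 28.8% G2/M and 38.5% S (T or NK), 13% S (neutrophil), 3.76% S (monocyte or macrophage) and an S to G2/M ratio of 0.71 (T or NK). That setting removes cells by having both lists.

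Without doublet removal the G2/M share was 6.25% (microglia or macrophage) and 2.15% (microglia, titled control). The S to G2/M ratio was then 0.889 and 0.618 in the microglia or macrophage-like and monocyte or macrophage-like cells. In the microglia-like and monocyte or macrophage-like cells of the library titled control it was 0.657 and 0.805, against 1.12 and 0.657 with removal. The median log2 ratios were 0.77 (G2/M, T or NK), 0.98 and 0.73 (G2/M and S, monocyte or macrophage). Resolution 2 gave 6.84% and 2.24% for the same shares and ratios of 0.889, 0.631, 0.675 and 0.522. Leaving out the sub-cluster of 38 cells gave 7.08% and 0.819. Both of these clusterings, like that removal, left fewer cells in the microglia or macrophage-like class (128, 117 and 339 against 377). Naming each cell alone gave ratios of 0.712 (monocyte or macrophage) and 1.2 (microglia, titled control), G2/M medians of 0.31, 0.10 and 4.11 (T or NK, monocyte or macrophage, oligodendrocyte) and S medians of 0.25, 1.38 and 0.12 (monocyte or macrophage, oligodendrocyte, endothelial).

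A gate of 0 UMIs gave G2/M shares of 4.79% (monocyte or macrophage) and 4.76% (oligodendrocyte), ratios of 0.538, 0.821 and 1.29 (microglia or macrophage, monocyte or macrophage, oligodendrocyte), G2/M medians of -0.12 (monocyte or macrophage, reversed) and 3.25 (oligodendrocyte) and an S median of 0.19 (monocyte or macrophage); it left too few T or NK cell-like and neutrophil-like cells. No gate, chosen after seeing the data like the sub-cluster and the second draw, gave 11.3% (monocyte or macrophage), 4.65% (oligodendrocyte) and 2.63% (oligodendrocyte, S), ratios of 0.554, 0.372, 0.543 and 0.892 (T or NK, neutrophil, monocyte or macrophage, oligodendrocyte), G2/M medians of 0.83, 4.92 and 4.69 (monocyte or macrophage, oligodendrocyte, endothelial) and S medians of 0.64, 0.67 and 1.5 (T or NK, monocyte or macrophage, oligodendrocyte). Means of per-cell CPM gave medians of 1.25 and 1.16 (G2/M) and 1.14 and 1.10 (S) in T or NK and monocyte or macrophage-like cells. No UMI minimum gave G2/M medians of 4.61 (oligodendrocyte) and 3.59 (endothelial) and an S median of 1.53 (oligodendrocyte). A second random draw moved none of the 16 shares outside their intervals. The number of cells limits the shares: 102 neutrophil-like cells give an interval of 28.8% to 48.4%.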
